A study of Homo sapiens with 6 samples.

Results

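The 42 genes described here encode the proteins that copy DNA and supply its building blocks: the origin licensing factors, the CMG helicase, the replicative polymerases with primase, the sliding clamp and its loader, the single-strand binding protein RPA, the enzymes that finish the lagging strand, and the enzymes of deoxynucleotide (dNTP) synthesis. They were selected by gene symbol from their known roles, with earlier results of these data known, and all 42 were found among the 62700 genes of the count table. All 42 also passed the filter on low counts, which left 24325 genes for testing. RNA sequencing had been carried out on PC3, an established human prostate cancer line, in 2 groups of 3 libraries made from total RNA after removal of ribosomal RNA. The control libraries came from PC3 cells with a control short hairpin RNA (shRNA, labelled shNC and wild type in genotype), and the others from PC3 cells with an shRNA that lowers the messenger RNA of TTC3, an E3 ubiquitin ligase gene. The sources used here do not give the hairpin sequence, the number of hairpins or clones, or the time between introduction of the hairpin and harvest. Whether the 3 libraries of a group are separate cultures is not stated in the labels either, and if they are not, the p-values reflect technical spread alone.

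In a dividing cell, replication origins are licensed in G1 phase, when the origin recognition complex with CDC6 and CDT1 loads the MCM2 to MCM7 ring onto DNA. In S phase CDC45 and the GINS complex join that ring to form the CMG helicase, primase and polymerase alpha start each strand, and polymerases delta and epsilon extend it on the PCNA clamp. Ribonucleotide reductase, thymidylate synthase, thymidine kinase and dUTPase set the supply of dNTPs. Many of these genes are transcribed in a wave at the G1 to S transition under E2F transcription factors, and their messages are a common gauge of proliferation in tumours. In bulk RNA, a larger share of cells in S phase and more RNA per cell cannot be told apart.

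Libraries held 143246356 to 155526861 estimated counts. TTC3 itself was at 695, 684 and 680 CPM (counts scaled to a common library size) in control replicates 1, 2 and 3 and at 228, 183 and 178 CPM in TTC3 shRNA replicates 1, 2 and 3, lower in 3 of 3. Among markers of the line, KRT8 and KRT18 lay between 139 and 279 CPM in all libraries and EPCAM between 4.32 and 5.64 CPM. KLK3 had 0 counts in every library. Of 7 markers of leukocytes, endothelium, fibroblasts and hepatocytes, PECAM1 reached 5.47 CPM, CD3E had 0 counts in every library and the other 5 stayed at or below 0.442 CPM. TTC3 shRNA replicate 1 differed more from replicates 2 and 3 of its group than these did from each other (chi-square per gene at 24 and 30.2 times sampling noise, against 7.32), and values that depend on it are given below.

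Replication genes were modestly higher in TTC3 shRNA cells. Of the 42 genes, 18 rose and 0 fell (edgeR quasi-likelihood test, Benjamini-Hochberg adjusted p below 0.05 over all 24325 genes), or 42.9% of them. Among all tested genes 15.7% passed as higher and 17.8% as lower, and among the 8319 protein-coding genes within the same range of mean CPM 26% passed as higher and 17.5% as lower. At an unadjusted p below 0.05, 25 were higher and 1, RFC1, was lower; limma-voom and DESeq2 also called 0 lower. The median log2 fold change was 0.22, against -0.02 for all tested genes and 0.06 for the protein-coding genes of the same range. The changes were small, with 3 of the 42 genes past the test at 1.5-fold or more (TK1, GINS4 and POLA2) and 0 at 2-fold. Of all 24325 tested genes, 1899 (7.81%) were higher at 1.5-fold or more, a share near that of the 42. The fold change was above 0 for 34 of the 42 genes, against 48.6% of all tested genes and 56.4% of the protein-coding genes of that range. The CPM of the 42 genes summed to 3205, 3240 and 3230 in control libraries and to 3625, 3896 and 3890 in TTC3 shRNA libraries, a mean of 118% of control.

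The 3 TTC3 shRNA libraries lay above all 3 controls for 28 of the 42 genes and below all 3 for 1 gene, RFC1. Over all tested genes these shares were 23.3% above and 27% below, and over the protein-coding genes of that range 34.8% lay above. The median over the 42 genes, relative to the control mean, was 0.16, 0.22 and 0.19 on the log2 scale in TTC3 shRNA replicates 1, 2 and 3, so the shift was present in each library. The number past the test depended on single libraries: leaving out control replicate 1, 2 or 3 gave 7 each time, and so did leaving out TTC3 shRNA replicate 2. Leaving out TTC3 shRNA replicate 3 gave 11, and leaving out its replicate 1 gave 29 higher and 2 lower (POLA1 and RFC1). The share of all tested genes called higher moved as well, to 7.33%, 7.45% and 7.45% without control replicates 1, 2 and 3. It was 8.65% and 10.8% without TTC3 shRNA replicates 2 and 3. Without TTC3 shRNA replicate 1, 26.3% of all tested genes were higher and 27.8% lower. GMNN, MCM6, GINS4, POLA2, POLD2, RRM2 and TK1 passed in each of these 6 fits. Over all 18 alternatives, which include stricter thresholds, these 7 passed in 16 to 18, and the other 11 in 3 (FEN1) to 11 (GINS2 and LIG1). With scaling by library totals alone, which moved the median of all genes from -0.02 to -0.15, 7 rose and 2 (CDC45 and RFC1) fell, and the median of the 42 genes was 0.09. Of all tested genes, 10.4% were higher and 22% lower with that scaling.

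**Figure D1:**
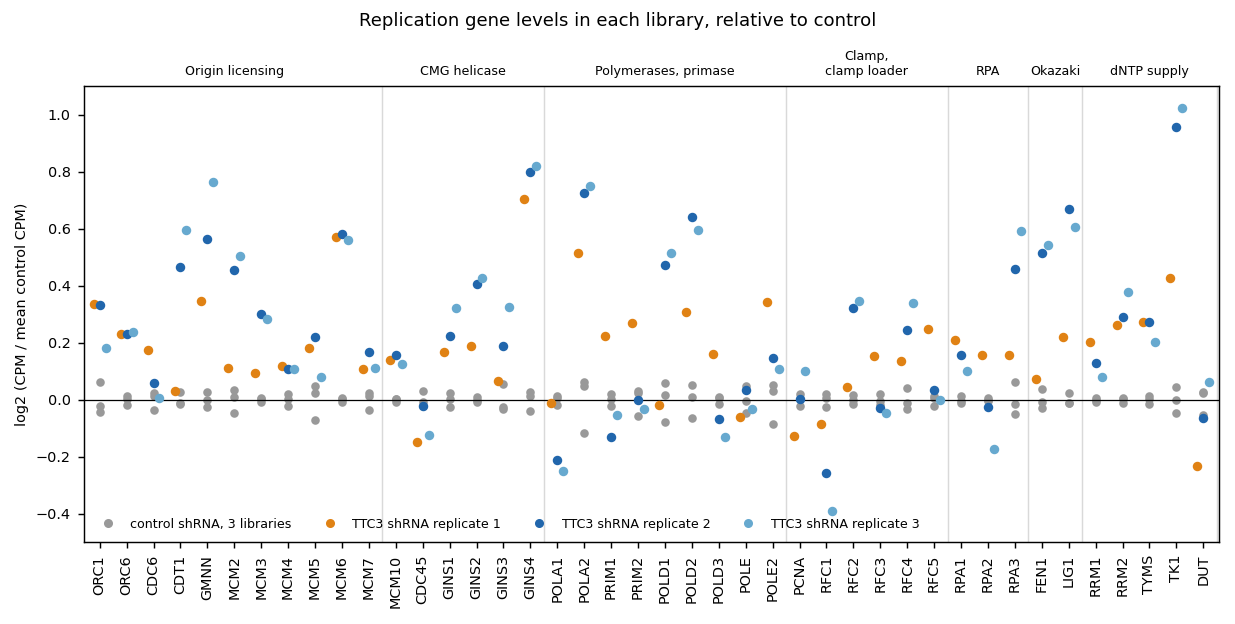
Log2 CPM of each of the 42 genes in each library relative to the mean of the 3 control libraries, grouped by role. Grey points are the control libraries, orange, dark blue and light blue points TTC3 shRNA replicates 1, 2 and 3; MCM6 shows 3 coinciding values near 0.57 while TK1 spreads from 0.43 to 1.02.

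**Figure D2:**
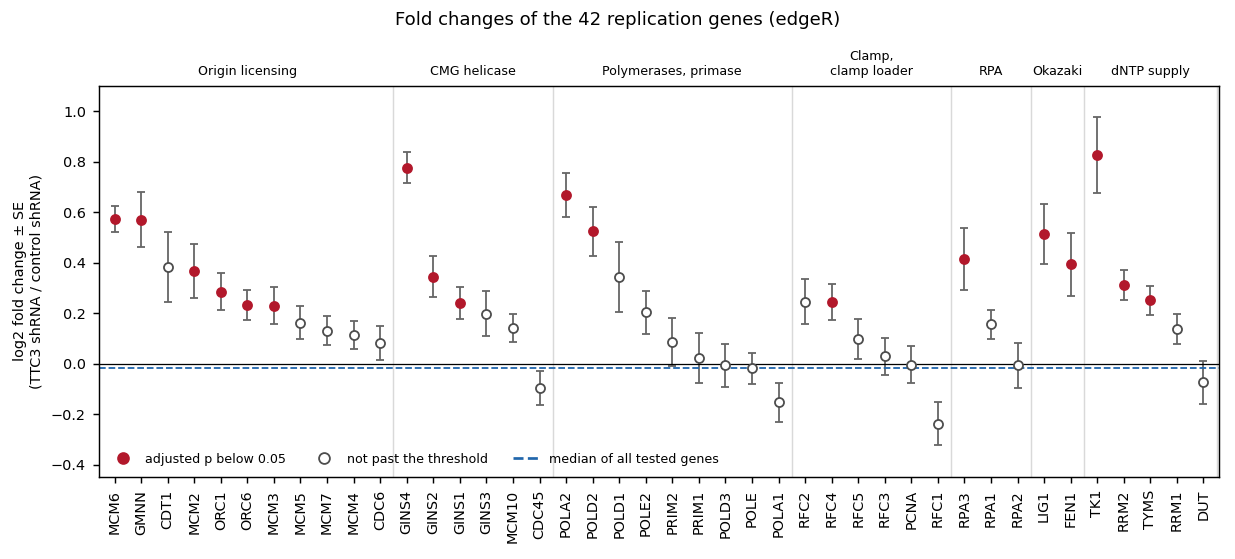
Log2 fold change (TTC3 shRNA relative to control shRNA) with its standard error for each gene, ordered within role. Filled points are the 18 genes past the test, open points the other 24, and the dashed line is the median of all tested genes at -0.02.

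For the counts by role that follow, 15.7% of all tested genes and 26% of the protein-coding genes of the same range passed as higher. Among the origin licensing genes, 6 of 11 (54.5%) rose and 0 fell, with a median of 0.23. The subunits of the origin recognition complex in the list rose slightly: ORC1, its large ATPase subunit, was at 22.1, 21.8 and 23.4 CPM in control libraries and 28.4, 28.2 and 25.5 CPM in TTC3 shRNA libraries (log2 fold change 0.29 ± 0.07 SE, adjusted p = 0.0241). ORC6, the smallest subunit, was at 21.9, 22 and 21.5 CPM against 25.6, 25.6 and 25.7 CPM (0.23 ± 0.06, adjusted p = 0.0231). In both genes the groups did not overlap, and the 3 TTC3 shRNA values of ORC6 were nearly equal. The call of ORC6 ended with length trends removed (0.029, adjusted p = 0.776) and with length and GC trends removed (0.094, adjusted p = 0.132).

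CDC6 and CDT1, the loading factors, did not pass. CDC6 was at 50.9 ± 1.1 and 53.9 ± 3.25 CPM (SD, n = 3 each) with overlapping groups. CDT1 was at 26.3, 25.5 and 25.6 CPM in control libraries and 26.3, 35.7 and 39.0 CPM in TTC3 shRNA libraries (adjusted p = 0.0714). Its replicate 1 stood at the level of the controls, with replicates 2 and 3 well above.

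GMNN encodes geminin, the inhibitor that binds CDT1 and stops origins from being licensed again after S phase starts. It was at 23.4, 23 and 22.6 CPM in control libraries and 29.3, 34.1 and 39.1 CPM in TTC3 shRNA libraries, 148% of control on average (log2 fold change 0.57 ± 0.11, adjusted p = 0.00756). The ratio of GMNN to CDT1 CPM within a library was 0.892, 0.901 and 0.882 in controls and 1.11, 0.955 and 1.00 in TTC3 shRNA libraries, so the inhibitor's message gained on that of its target in each of the 3.

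The MCM2 to MCM7 genes encode the 6 subunits of the ring that becomes the motor of the helicase. In all 6 genes the TTC3 shRNA libraries lay above all controls; 3 passed the test and 0 fell, with MCM4 just below 0 (log2 fold change -0.015) when scaled by library totals and MCM7 below 0 (-0.07) with length and GC trends removed. MCM6 (ENSG00000076003.5, hg38 chromosome 2, 135839626 to 135876426, minus strand) was at 80.4, 80.5 and 79.7 CPM in control libraries and 119, 120 and 118 CPM in TTC3 shRNA libraries. Its groups were separated by far more than the spread within either (0.57 ± 0.05, adjusted p = 0.000381). MCM2 was at 104, 108 and 110 CPM against 116, 147 and 152 CPM (0.37 ± 0.11, adjusted p = 0.0364), and MCM3 at 168, 167 and 169 CPM against 179, 207 and 204 CPM (0.23 ± 0.07, adjusted p = 0.0488). For both, replicate 1 was the lowest of the TTC3 shRNA libraries. MCM3 passed in 5 of 18 alternatives, with a log2 fold change of 0.098 under library totals (adjusted p = 0.287) and 0.196 with length trends removed (adjusted p = 0.0577).

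The other ring subunits had smaller differences that did not pass. MCM4, the most abundant in CPM, was at 238, 234 and 241 CPM against 258, 256 and 256 CPM, MCM5 at 79.8 ± 3.48 and 89.3 ± 4.37 CPM and MCM7 at 198 ± 4.27 and 216 ± 5.00 CPM (adjusted p = 0.156, 0.101 and 0.123). The ring subunits thus changed by unequal amounts: the ratio of MCM6 to MCM4 CPM was 0.338, 0.344 and 0.331 in controls and 0.462, 0.468 and 0.462 in TTC3 shRNA libraries.

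Levels of ring subunits were compared per kilobase of transcript. In control cells the order was MCM7 at 75.0 ± 1.62, MCM4 at 58.7 ± 0.875, MCM3 at 53.0 ± 0.262, MCM2 at 29.7 ± 0.852, MCM5 at 23.5 ± 1.02 and MCM6 at 21.5 ± 0.112 CPM per kb. MCM6, lowest of the 6 in control cells, stood above MCM5 in TTC3 shRNA cells, at 31.9 ± 0.204 against 26.2 ± 1.28 CPM per kb. MCM3 and MCM4 did not differ beyond their spread in TTC3 shRNA cells (62.1 ± 4.85 and 63.4 ± 0.248 CPM per kb).

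**Figure D3:**
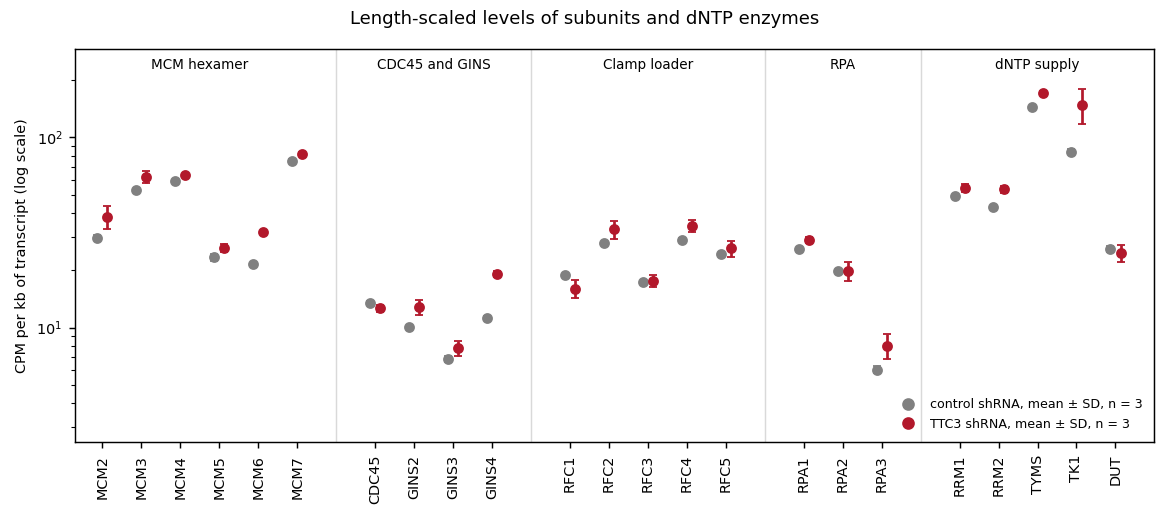
CPM per kilobase of transcript (log axis) as mean ± SD of 3 libraries, grey for control and red for TTC3 shRNA, for the MCM ring, CDC45 with GINS2 to GINS4, the clamp loader, RPA and the dNTP enzymes. MCM6 and GINS4 move up within their complexes, while CDC45 and RFC3 stay near their control level; GINS1 is left out because 28.5% of its counts had a transcript of known length.

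Of the genes that turn the loaded ring into the CMG helicase, 3 of 6 rose and 0 fell, with a median of 0.22. GINS4 (ENSG00000147536.12, chromosome 8, 41529206 to 41545046, plus strand), which encodes the Sld5 subunit of the GINS tetramer, was at 42.4, 42.8 and 40.9 CPM in control libraries and 68.6, 73.2 and 74.2 CPM in TTC3 shRNA libraries. This was 171% of control (log2 fold change 0.78 ± 0.06, adjusted p = 0.000209), and the call held in all 18 alternative analyses of the gene. GINS2, the Psf2 subunit, was at 26.9, 27.0 and 27.2 CPM against 30.8, 35.7 and 36.3 CPM (0.34 ± 0.08, adjusted p = 0.0164). GINS1, the Psf1 subunit, was at 60.5, 61.5 and 59.4 CPM against 67.9, 70.6 and 75.5 CPM (0.24 ± 0.06, adjusted p = 0.0258).

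The remaining members of that group did not pass. GINS3, the Psf3 subunit, was at 14.6 ± 0.501 and 16.7 ± 1.5 CPM (adjusted p = 0.130), so all 4 GINS genes had higher values, by unequal amounts: the ratio of GINS4 to GINS3 CPM was 2.98, 2.83 and 2.86 in controls and 4.49, 4.41 and 4.07 in TTC3 shRNA libraries. CDC45, the partner of GINS in the helicase, was at 26 ± 0.476 and 24.3 ± 1.15 CPM with overlapping groups (log2 fold change -0.10 ± 0.07, adjusted p = 0.304). It passed as lower with library totals (-0.225, adjusted p = 0.0459) and with length trends removed (-0.26, adjusted p = 0.0209). MCM10, a factor needed to activate the helicase, was at 31.9 ± 0.137 and 35.1 ± 0.359 CPM (adjusted p = 0.0937).

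Of 9 polymerase and primase genes, 2 (22.2%) rose and 0 fell, and the median was 0.09. That share was below the 26% of protein-coding genes of similar level that passed as higher. Both genes that rose encode accessory subunits. POLA2 (ENSG00000014138.10, chromosome 11, 65261762 to 65305589, plus strand), the B subunit of polymerase alpha, was at 37.8, 33.8 and 38.2 CPM in control libraries and 52.4, 60.6 and 61.6 CPM in TTC3 shRNA libraries (0.67 ± 0.09, adjusted p = 0.00182). POLD2, the B subunit of polymerase delta, was at 113, 123 and 119 CPM against 147, 185 and 179 CPM (0.52 ± 0.10, adjusted p = 0.00708), and its call ended with length and GC trends removed (0.12, adjusted p = 0.158). In both genes every TTC3 shRNA library was above every control.

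The catalytic subunits did not pass. POLA1, the catalytic subunit of polymerase alpha, was at 94.6, 94.0 and 92.5 CPM in control libraries and 93.0, 81.0 and 78.7 CPM in TTC3 shRNA libraries (log2 fold change -0.15 ± 0.08, adjusted p = 0.165), with replicate 1 among the controls. The ratio of POLA2 to POLA1 CPM was 0.4, 0.36 and 0.413 in controls and 0.563, 0.749 and 0.782 in TTC3 shRNA libraries. POLE, the catalytic subunit of polymerase epsilon, was at 115 ± 3.85 and 114 ± 3.88 CPM with overlapping groups. POLD1, the catalytic subunit of polymerase delta, was at 76.1, 83.6 and 81.3 CPM against 79.4, 111 and 115 CPM (adjusted p = 0.0982), again with replicate 1 among the controls.

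The primase subunits PRIM1 and PRIM2 were at 35.0 ± 0.533 and 30.0 ± 1.01 CPM in control cells and 35.5 ± 4.72 and 31.9 ± 3.77 CPM in TTC3 shRNA cells. Their groups overlapped, and replicate 1 was the highest TTC3 shRNA library for both. POLD3, an accessory subunit of polymerase delta, was at 40.5 ± 0.388 and 40.3 ± 4.39 CPM. POLE2, the B subunit of polymerase epsilon, was at 27.3 ± 1.39 and 31.4 ± 2.81 CPM without overlap (adjusted p = 0.108).

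Among the clamp and clamp loader genes, 1 of 6 (16.7%) rose and 0 fell, near the 15.7% of all tested genes that passed as higher. Their median was 0.06, near that of protein-coding genes of similar level. PCNA, the sliding clamp and the most abundant of the group, was at 176, 174 and 171 CPM in control libraries and 159, 174 and 186 CPM in TTC3 shRNA libraries. The controls lay inside the range of the TTC3 shRNA libraries (log2 fold change -0.0049 ± 0.07, adjusted p = 0.966). RFC4, a small subunit of the clamp loader, was at 39.5, 40.9 and 38.9 CPM against 43.7, 47.2 and 50.3 CPM (0.24 ± 0.07, adjusted p = 0.037). Its fold change was -0.0079 with length trends removed.

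The other loader subunits did not pass. RFC1, the large subunit, was at 92.9, 90.1 and 92.2 CPM in control libraries and 86.5, 76.7 and 70.02 CPM in TTC3 shRNA libraries (log2 fold change -0.24 ± 0.08, adjusted p = 0.0679). It was the single gene of the 42 whose TTC3 shRNA libraries all lay below the controls. RFC2 was at 45.8 ± 0.519 and 54.3 ± 6.08 CPM (adjusted p = 0.0737). The ratio of RFC1 to RFC2 CPM was 2.03, 1.94 and 2.03 in controls and 1.83, 1.34 and 1.2 in TTC3 shRNA libraries. With length and GC trends removed, the log2 fold change of RFC2 was -0.014. RFC1 passed as lower with length trends removed but not with both removed. RFC3 and RFC5 overlapped between groups, at 37.0 ± 0.485 and 47.2 ± 0.608 CPM in controls and 37.7 ± 2.93 and 50.5 ± 4.81 CPM in TTC3 shRNA cells.

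The RPA heterotrimer coats single-stranded DNA at the fork. RPA3, its smallest subunit, was at 12.6, 11.6 and 11.9 CPM in control libraries and 13.4, 16.5 and 18.2 CPM in TTC3 shRNA libraries (0.41 ± 0.12, adjusted p = 0.0365). Its call ended with length trends removed (0.25, adjusted p = 0.0768) and with library totals (0.28, adjusted p = 0.0793), and it passed in 6 of 18 alternatives. RPA1, the large DNA-binding subunit, was at 112, 112 and 114 CPM against 130, 126 and 121 CPM without overlap (adjusted p = 0.0751). RPA2 was at 34.5 ± 0.118 and 34.3 ± 3.95 CPM, with replicate 1 above and replicates 2 and 3 below the controls.

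Both genes of lagging strand maturation passed as higher, FEN1 only narrowly. FEN1, the nuclease that removes the flap of an Okazaki fragment, was at 94.7, 99.1 and 96.1 CPM in control libraries and 102, 138 and 141 CPM in TTC3 shRNA libraries (0.39 ± 0.13, adjusted p = 0.0486), and it passed in 3 of 18 alternative analyses, with limma-voom giving an adjusted p of 0.0598 and the values without length trends 0.0879. LIG1, the ligase that joins the fragments, was at 22.5, 22.5 and 23.1 CPM against 26.4, 36.1 and 34.5 CPM (0.51 ± 0.12, adjusted p = 0.0167). In both, replicate 1 was the lowest of the TTC3 shRNA libraries. Relative to the control mean, replicates 1, 2 and 3 were at 0.07, 0.52 and 0.55 for FEN1 on the log2 scale. For LIG1 they were at 0.22, 0.67 and 0.61. The ratio of PCNA to FEN1 CPM, 1.86, 1.76 and 1.78 in controls, was 1.57, 1.26 and 1.32 in TTC3 shRNA libraries.

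Of the 5 genes of dNTP supply, 3 rose and 0 fell, with a median of 0.25. TK1 (ENSG00000167900.12, chromosome 17, 78174075 to 78187233, minus strand), the cytosolic thymidine kinase of the salvage pathway, was at 133, 141 and 137 CPM in control libraries and 184, 266 and 278 CPM in TTC3 shRNA libraries. It had the largest fold change of the 42 genes, 177% of control on average (0.83 ± 0.15, adjusted p = 0.00645). RRM2, the regulated small subunit of ribonucleotide reductase, was at 143, 143 and 141 CPM against 171, 174 and 185 CPM (0.31 ± 0.06, adjusted p = 0.00776). TYMS, thymidylate synthase, the most abundant per kilobase in control cells of the dNTP genes, was at 238, 234 and 237 CPM against 286, 286 and 272 CPM (0.25 ± 0.06, adjusted p = 0.0157), and its call ended with length trends removed (0.05, adjusted p = 0.639).

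RRM1, the large subunit of the reductase, was at 151 ± 0.714 and 167 ± 7.11 CPM without overlap (adjusted p = 0.114). The ratio of RRM2 to RRM1 CPM was 0.938, 0.95 and 0.933 in controls and 0.98, 1.05 and 1.16 in TTC3 shRNA libraries. DUT, the dUTPase that keeps uracil out of DNA, was at 50.7, 50.6 and 47.9 CPM against 42.3, 47.5 and 51.9 CPM with overlapping groups (adjusted p = 0.545).

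**Figure D4:**
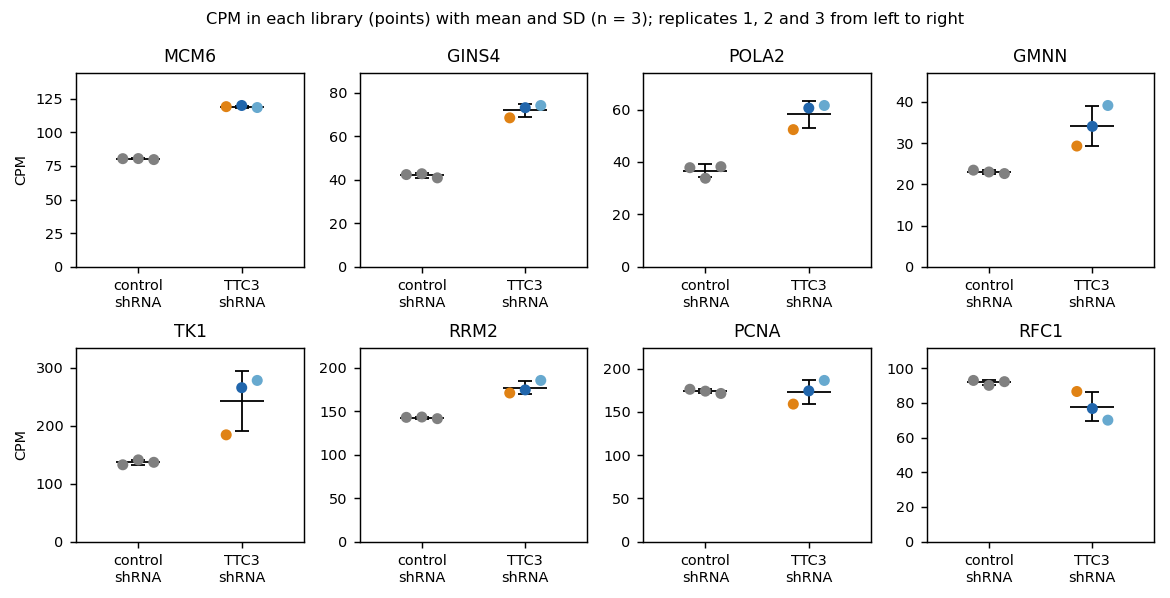
CPM of 8 genes in each library, with the mean and SD (n = 3) of each group and axes that start at 0. MCM6, GINS4, POLA2, GMNN, TK1 and RRM2 lie above the controls in each TTC3 shRNA library, PCNA straddles them and RFC1 lies below.

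The 3 TTC3 shRNA libraries fell into recognisable patterns by gene. For MCM6, ORC6, MCM10 and MCM4 the mean of replicates 2 and 3 was within 0.01 of replicate 1 on the log2 scale. For TK1, POLD1, CDT1, FEN1 and LIG1 it was above replicate 1 by 0.56, 0.51, 0.50, 0.46 and 0.42, and for PRIM1 and PRIM2 below it (-0.32 and -0.29). This gap moved with base composition: transcripts of CDT1, POLD1 and TK1 had a GC content of 64.9%, 64.4% and 61.8%, those of PRIM1 and PRIM2 40.1% and 41.5%. The GC content of PRIM1, LIG1 and GINS1 rests on matched transcripts that held 35.6%, 27.0% and 28.5% of their counts. Across the 42 genes, which share the same 3 libraries, the gap and GC content had a Pearson r of 0.68 and a Spearman rho of 0.61, and across 10786 protein-coding genes of at least 5 CPM 0.71 and 0.76. Genes are not independent replicates, so these are descriptions.

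**Figure D5:**
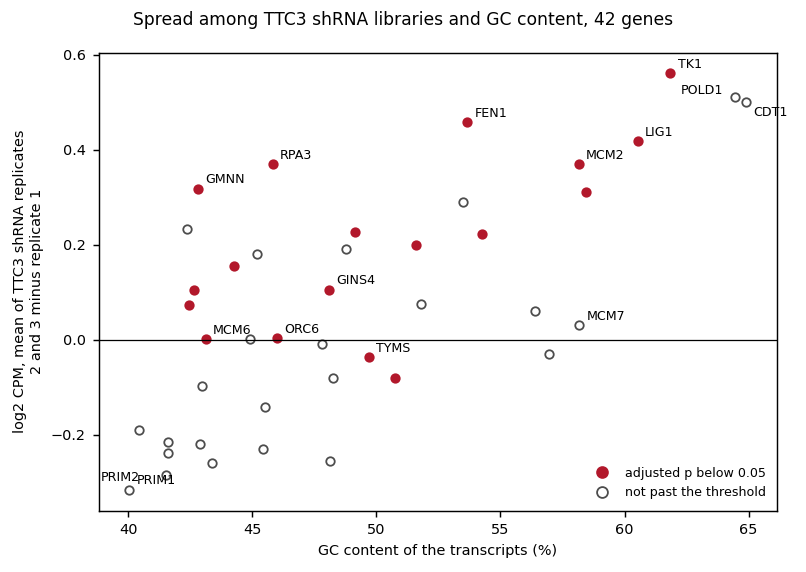
Difference in log2 CPM between the mean of TTC3 shRNA replicates 2 and 3 and replicate 1 (vertical axis) against the GC content of each gene's transcripts in percent (horizontal axis), for the 42 genes. Filled points passed the test between groups. GC-rich TK1, CDT1 and POLD1 lie highest at 0.50 to 0.56, GC-poor PRIM1 lowest at -0.32, and MCM6 and ORC6 at 0. The GC content of PRIM1 rests on transcripts that held 35.6% of its counts.

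With each library's trend with transcript length removed, 12 of the 18 genes still passed, 13 genes in all were higher and 4 (CDC45, PCNA, RFC1 and DUT) lower, and the median of the 42 was 0.13. With trends in length and then GC content removed (chosen with the data in view), 12 of the 18 passed, 17 genes were higher and 2 (CDC45 and PCNA) lower, and the median was 0.11. Length removal moved the median of all genes to -0.17, so these values are relative to a lower centre. Of all genes, 12.9% were higher and 24.3% lower with length trends removed, and 16.3% and 28.3% with both removed. In the second analysis MCM6 rose by 0.68 and GINS4 by 0.81, as large as before, while TK1 rose by 0.42 and POLD2, at 0.12, did not pass.

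The transcript table gave a second count of the same 6 libraries. Of 115 tested transcripts of the 42 genes, 2 were higher and 1 lower (edgeR, adjusted over 53805 transcripts), where 1.39% of all transcripts passed as higher and 2.6% as lower. The MCM6 transcript ENST00000264156.3, the only one of that gene tested, was at 81.1, 81.5 and 80.3 CPM in control libraries and 120, 119 and 117 CPM in TTC3 shRNA libraries (adjusted p = 0.015). The GINS4 transcript ENST00000276533.4 was at 22.9 ± 1.43 and 47.3 ± 10.5 CPM (adjusted p = 0.0477), while a second GINS4 transcript, ENST00000523277.6, was at 17.7 ± 2.45 and 21.5 ± 8.87 CPM and did not pass. The short LIG1 transcript ENST00000596549.6 was at 1.61, 0.596 and 1.36 CPM against 0.147, 0.115 and 0.0686 CPM (adjusted p = 0.0368), in a gene for which 27.0% of counts were on transcripts matched by identifier. All 3 calls ended when a control replicate (1, 2 or 3), TTC3 shRNA replicate 2 or TTC3 shRNA replicate 3 was left out, and 12 transcripts were higher and 3 lower with TTC3 shRNA replicate 1 left out. For the 18 genes that rose, the most abundant tested transcript had a fold change above 0 in 16, with a median of 0.33. The 2 exceptions were those of GINS1 and LIG1, which did not pass. These genes were picked for their rise in the same libraries, so mostly positive signs follow from that choice and are no separate evidence. For MCM2, MCM6, GINS2 and FEN1 that transcript held 100% of the gene's tested transcript CPM.

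Other genes of the pathway moved less uniformly. For the counts below, 15.7% of all tested genes passed as higher and 17.8% as lower, and 6.67% of the further origin genes passed as higher. Of 15 further origin genes 1 rose and 1 fell: ORC2, another subunit of the origin complex, was at 44.1 ± 0.604 and 56.9 ± 6.56 CPM (0.37 ± 0.09, adjusted p = 0.0198), and TICRR, which brings CDC45 to origins, was at 75.0, 77.2 and 75.8 CPM in control libraries and 57.6, 59.5 and 59.3 CPM in TTC3 shRNA libraries (log2 fold change -0.37 ± 0.05, adjusted p = 0.00275). TICRR lies on chromosome 15, where the median log2 fold change of 340 protein-coding genes was -0.42 and 60.3% passed as lower, so its value was near that of its chromosome. Of 20 further fork genes 9 rose and 1 fell. POLE4, a histone-fold subunit of polymerase epsilon, went from 15.1 ± 0.163 to 35.0 ± 6.82 CPM (1.21 ± 0.14, adjusted p = 0.00116), and RNASEH2C, a subunit of the nuclease that removes ribonucleotides, from 52.1 ± 1.44 to 92.6 ± 19.6 CPM (0.83 ± 0.15, adjusted p = 0.00635). The fork protection partners TIMELESS and TIPIN changed in opposite directions, TIMELESS from 54.9 ± 0.970 to 71.9 ± 3.74 CPM (0.39 ± 0.06, adjusted p = 0.00397) and TIPIN from 11.8 ± 0.216 to 8.75 ± 0.372 CPM (-0.43 ± 0.08, adjusted p = 0.00769). TIPIN also lies on chromosome 15 and was likewise near the chromosome's median.

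Of 15 further genes of nucleotide supply 8 rose and 3 fell. SAMHD1, the enzyme that hydrolyses dNTPs, was at 155, 158 and 153 CPM in control libraries and 80.2, 78.8 and 77.1 CPM in TTC3 shRNA libraries, about the same in each library of a group (log2 fold change -0.98 ± 0.05, adjusted p = 5.14e-05). TK2, the mitochondrial thymidine kinase, was at 20.01 ± 0.856 and 13.2 ± 0.555 CPM (-0.60 ± 0.07, adjusted p = 0.00146), opposite in direction to its cytosolic counterpart TK1. The nucleoside diphosphate kinases NME1 and NME2 went from 157 ± 2.52 to 248.6 ± 21.8 CPM and from 290 ± 2.73 to 464 ± 46.8 CPM; the genes are adjacent and alike in sequence, so their single values are uncertain. Of 11 E2F family and MYBL2 genes 5 rose and 0 fell at the adjusted threshold; at an unadjusted p below 0.05, 6 were higher and 0 lower. The repressor E2F6 went from 13.3 ± 0.245 to 18.8 ± 1.04 CPM (0.50 ± 0.07, adjusted p = 0.00301) and MYBL2, an activator of cell cycle genes, from 144 ± 1.68 to 209 ± 29.2 CPM (0.54 ± 0.11, adjusted p = 0.00842). The dimer partners TFDP1 and TFDP2 went from 116 ± 1.66 to 134 ± 4.68 CPM and from 38.7 ± 1.42 to 46.6 ± 2.59 CPM. E2F1, named after its values were seen, was at 62.6 ± 1.83 and 76.3 ± 14.7 CPM and did not pass (adjusted p = 0.151). Over the 61 further genes 23 rose and 5 fell. The share that rose was 37.7%, against 15.7% of all tested genes. Leaving out control replicate 1 gave 10 and 4, control replicate 2 gave 9 and 4, and control replicate 3 gave 9 and 4. Leaving out TTC3 shRNA replicate 1 gave 31 and 13, and leaving out its replicate 2 gave 12 and 4.

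Promoters were read from RefSeq on GRCh38.p14, which held 36 of the 42 genes. The window ran from 250 bases before to 50 bases after the start of the first promoter listed for a gene, and was searched on both strands for the E2F words TTTCCCGC, TTTCGCGC, TTTGCCGC and TTTGGCGC, for the CCAAT box CCAAT, for the GC box GGGCGG and for the cell cycle element CHR, TTTGAA, which can overlap each other. An E2F word was found in 17 of 36 (47.2%), where 4.44% of 15843 protein-coding promoters of the same length held one. It was found in 8 of the 16 genes that rose and in 9 of the 20 that did not pass, so the word was about as frequent in either set. A CCAAT box was found in 20 of 36 (55.6% against 36.4% of all) and a GC box in 25 of 36 (69.4% against 58.5%). The CHR letters were found in 1 of 36 (2.78% against 12.1%). A match is a description of the letters in this window.

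The 120 bases before the start are shown for the 5 matched genes of largest rise and the 3 of most negative fold change outside chromosomes 8 and 18, to set the promoters of genes that moved differently side by side; capitals mark the E2F words, CCAAT boxes and GC boxes on either strand.
TK1 (chr17:78187205-78187324, minus strand): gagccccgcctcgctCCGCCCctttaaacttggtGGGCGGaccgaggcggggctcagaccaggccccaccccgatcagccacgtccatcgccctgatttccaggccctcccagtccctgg
POLA2 (chr11:65261842-65261961, plus strand): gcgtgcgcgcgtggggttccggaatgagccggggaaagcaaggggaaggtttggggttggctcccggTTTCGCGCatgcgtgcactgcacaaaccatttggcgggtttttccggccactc
MCM6 (chr2:135876444-135876563, minus strand): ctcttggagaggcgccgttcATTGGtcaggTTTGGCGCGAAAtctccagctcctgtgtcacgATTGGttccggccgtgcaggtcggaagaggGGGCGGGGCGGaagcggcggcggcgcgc
GMNN (chr6:24774817-24774936, plus strand): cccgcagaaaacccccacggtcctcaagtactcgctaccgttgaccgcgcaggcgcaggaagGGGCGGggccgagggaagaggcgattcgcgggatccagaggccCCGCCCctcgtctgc
POLD2 (chr7:44123549-44123668, minus strand): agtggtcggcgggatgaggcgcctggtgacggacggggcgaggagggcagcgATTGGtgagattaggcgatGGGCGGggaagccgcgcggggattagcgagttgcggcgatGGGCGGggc
RFC1 (chr4:39366363-39366482, minus strand): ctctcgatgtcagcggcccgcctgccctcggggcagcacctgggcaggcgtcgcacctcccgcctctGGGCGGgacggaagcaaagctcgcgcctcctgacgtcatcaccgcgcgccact
POLA1 (chrX:24693798-24693917, plus strand): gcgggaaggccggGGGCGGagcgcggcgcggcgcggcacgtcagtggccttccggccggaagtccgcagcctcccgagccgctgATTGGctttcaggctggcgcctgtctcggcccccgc
CDC45 (chr22:19479800-19479919, plus strand): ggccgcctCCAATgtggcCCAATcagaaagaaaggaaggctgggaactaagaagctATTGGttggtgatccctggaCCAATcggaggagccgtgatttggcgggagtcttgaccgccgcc
In these windows MCM6 had 2 overlapping E2F words, 2 CCAAT boxes and 2 GC boxes and POLA2 had 1 E2F word. TK1, GMNN and POLD2, which also rose, had no E2F word here and 2 GC boxes each, with 1 CCAAT box in POLD2. CDC45, which did not pass, had 4 CCAAT boxes and no E2F word, and neither RFC1 nor POLA1 had an E2F word in the 120 bases shown. Farther upstream in the searched window, POLA1 had an E2F word with its first base at -137, and MCM6 had others at -152 and -148.

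Position in the genome was compared as well. MCM6 and RRM2 lie on chromosome 2, where 53.9% of 711 protein-coding genes of at least 5 CPM passed as higher and the median log2 fold change was 0.33; that of MCM6 was 0.57 and that of RRM2 0.31. Within 5 Mb of RRM2 the median of 24 such genes was 0.38, above RRM2 itself. DUT lies on chromosome 15, where the median of 340 genes was -0.42 and 60.3% passed as lower; within 5 Mb of DUT 36 of 51 neighbours fell, with a median of -0.51, against -0.07 for DUT. GINS4 was at 0.78 with a median of -0.16 over its 33 neighbours, 10 of which fell and 5 rose. RFC1, on chromosome 4, was at -0.24 with a lower median of -0.36 over its 21 neighbours, 12 of which fell and 2 rose. POLA2 and FEN1 lie in stretches of chromosome 11 with medians of 0.39 and 0.38. The part of these regional shifts in the values of single genes was not tested.

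Several genes share genomic sequence with others, and how reads were divided is not stated, which makes their values uncertain. POLA2 overlaps ENSG00000285816 on the same strand, whose level was 53.5 and 50.6 CPM in the control and TTC3 shRNA groups (log2 fold change -0.08, not past the test). FEN1 overlaps FADS2 on the same strand (-0.08), and PRIM1 overlaps NACA there (-0.03). PRIM1 also overlaps ENSG00000285625 on the same strand (2.64, adjusted p = 0.0401, with 4.41% of the counts of PRIM1). On the opposite strand, RFC4 overlaps EIF4A2 (-0.32, adjusted p = 0.0103), RPA3 overlaps UMAD1 (-0.32, adjusted p = 0.0336) and GINS2 overlaps GSE1 (-0.12). Also on the opposite strand, RFC5 overlaps WSB2 (0.32, adjusted p = 0.0181) and MCM7 overlaps AP4M1 (0.37, adjusted p = 0.0474). POLA1 overlaps the pseudogene EEF1B2P3 there (1.26, adjusted p = 0.00149, with 1.4% of the counts of POLA1). TYMS overlaps ENOSF1 (0.08) and TYMSOS (1.14, adjusted p = 0.0186, with 1.38% of the counts of TYMS), both on the opposite strand.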

How the data were processed

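The values are estimated counts per gene and per transcript, deposited by the authors for 6 libraries. Trim Galore, STAR, StringTie and hg38 are named in the submitters' processing notes; their versions are not stated there, nor is the use of strand in counting. The deposited counts were whole numbers and were used without rounding. Genes with low counts were removed with filterByExpr (minimum count 10, minimum total 15), which left 24325 genes, and libraries were scaled by TMM. Groups were compared with edgeR 4.0.16 (quasi-likelihood test, R 4.3.3) and Benjamini-Hochberg adjustment over all genes tested. Every adjusted p is from edgeR unless another tool is named, and ± after a fold change is its standard error. The trend removals used limma 3.58.1 and a lowess span of 0.5, so their adjusted p are limma's. Positions and transcript lengths came from GENCODE 29 (hg38), which held 58207 of the 62700 genes; CPM per kb uses the length of matched transcripts weighted by their counts. Alternatives also used limma-voom and DESeq2 1.42.0. The tests were first tested on simulated data. The 42 genes and the further lists were chosen with earlier results of these data known. The genes given by library are those past the threshold and the most abundant of each role, with others added where libraries differ; up to 4 per further list were named in order of adjusted p. Promoters shown are those of largest change in each direction.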

Additional observations from a re-analysis of the deposited data

How the results depend on the processing

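Of the 42 genes, 18 were higher and 0 lower. With library totals alone, 7 were higher and 2 lower and the median was 0.0884. At an adjusted p below 0.01, 7 were higher. Against a fold of 1.5 (glmTreat), 1 was higher, GINS4. Of all tested genes, 10.4%, 6.94% and 1.92% were higher in these fits, in that order. With length trends removed, 4 were lower and the median was 0.13; with length and GC trends removed, 2 were lower and the median was 0.111. Leaving out 1 library at a time gave 7 to 29 higher and 0 to 2 lower, with medians of 0.205 to 0.253. The 61 further genes, 23 higher and 5 lower, gave 10 and 8 with library totals, 9 higher at an adjusted p below 0.01, 2 and 1 against a fold of 1.5, 8 lower with length trends removed, 9 lower with length and GC trends removed, and 9 to 31 higher and 4 to 13 lower with 1 library left out. Transcripts of the 42 genes, 2 higher and 1 lower, gave 12 and 3 with DESeq2, 1 and 0 with limma-voom, and 0 to 12 higher and 0 to 3 lower with 1 library left out. The cause of these shifts was not tested.

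With the replicate number as a replicate block, 11 of the 42 genes were higher and 0 lower, and 0 transcripts were higher and 0 lower. Of all tested genes, 13.2% were higher and 15.3% lower with the block. Deviations of same-numbered libraries correlated at 0.136, 0.123 and 0.0322 over 11662 genes, and those of other pairs at -0.127 to 0.0643. Control replicate 3 was slightly closer to TTC3 shRNA replicate 2 (0.0363) than to replicate 3. The labels state no pairing beyond the number, and these small correlations do not decide whether same-numbered libraries were handled together.

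The log2 fold change of these genes changed sign; none of them but RFC4 had passed the test. With library totals alone, CDC6 was at -0.0435, MCM4 at -0.0153, PRIM1 at -0.103, PRIM2 at -0.0374, RFC3 at -0.0967 and RFC5 at -0.0268. With length trends removed, PRIM1 was at -0.233, PRIM2 at -0.0326, POLE at 0.0828, RFC3 at -0.107, RFC4 at -0.0079 and RFC5 at -0.0661. With length and GC trends removed, MCM7 was at -0.07, POLA1 at 0.0112, PRIM1 at -0.108, POLD1 at -0.0507, POLD3 at 0.0882 and RFC2 at -0.014. With DESeq2 size factors, POLD3 was at 0.00186, PCNA at 0.00417 and RPA2 at 0.00157. With the DESeq2 Wald test, POLD3 was at 0.00189, PCNA at 0.00416 and RPA2 at 0.0016. With TMM without mitochondrial genes and the 20 highest genes, POLD3 was at 0.00796, PCNA at 0.0145 and RPA2 at 0.00746. With no filter on low counts, PCNA was at 4.6e-05. With 1 library left out, DUT ranged from -0.136 to 0.0169, PCNA ranged from -0.0493 to 0.0701, POLD3 ranged from -0.0825 to 0.0615, POLE ranged from -0.0441 to 0.0173, PRIM1 ranged from -0.0754 to 0.0944, RFC3 ranged from -0.0207 to 0.0756 and RPA2 ranged from -0.0807 to 0.0793.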

Other observations

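The reads of MCM7 were divided between 2 main transcripts. ENST00000303887.10 held 68.5% of the counts of the gene's matched transcripts in control cells and 84% in TTC3 shRNA cells, and ENST00000425308.6 held 26.6% and 10.6%. The second was at 69.6, 28.2 and 57.4 CPM in control libraries and at 50.9, 8.16 and 8.56 CPM in TTC3 shRNA libraries. The groups overlapped through TTC3 shRNA replicate 1, and neither transcript passed the test (edgeR, adjusted p = 0.272 and 0.481).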
